A study of Mus musculus with 11 samples.

Results

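The 8 Hedgehog pathway genes described here are Hhip, Ptch1, Smo, Gas1, Boc, Gli1, Gli2 and Gli3, taken by symbol from the 27998 genes of the droplet tables and the 24489 genes of the plate tables, and all 8 were found in both. They were chosen by a measured pattern, the lower Hhip level in hepatic stellate cells (HSCs) of injured liver, so that pattern is given as a description with no test.

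Hedgehog ligands (Shh, Ihh and Dhh) bind the receptor Ptch1, which otherwise holds the membrane protein Smo inactive. Released Smo acts at the primary cilium on the zinc finger transcription factors Gli1, Gli2 and Gli3. Gas1, Boc and Cdon are co-receptors, and Hhip is a surface protein that binds the ligands and takes them away from Ptch1. Hhip, Ptch1 and Gli1 are also classical target genes of the pathway, and in the liver the pathway is best known for its activity in bile duct and mesenchymal cells after injury.

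The cells came from livers of Pdgfrb-BAC-eGFP reporter mice aged 10 to 16 weeks and were sorted as GFP-positive, CD45-negative and CD102-negative, so cells without the reporter were not sampled. In 5 droplet libraries (10x Genomics 3′ v2), each a pool of 3 mice, the HSC digestion gave 1 uninjured library, 1 library taken 72 h after a single injection of carbon tetrachloride (CCl4, a hepatotoxin that injures hepatocytes around the central vein), and 1 library after 6 weeks of repeated CCl4. The second digestion, for periportal mesenchyme, gave 1 uninjured and 1 6-week CCl4 library. In 6 plates of sorted cells read by Smart-seq2 (full-length cDNA of 1 cell per well), wells of uninjured mice shared plates with wells taken 14 days after bile duct ligation (BDL, cholestatic injury) on 3 plates or after 6 weeks of CCl4 on 2 plates, and the remaining plate held uninjured cells of both digestions.

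The droplet libraries held 5448 to 7293 HSC-like cells in the 3 HSC digestions, and 4063 and 2639 fibroblast-like (FB-like) and 1669 and 3004 vascular smooth muscle-like (VSMC-like) cells in the uninjured and CCl4 libraries of the other digestion. Class names rest on fixed markers: Reln (an extracellular matrix protein made by HSCs) stood at 566 to 1405 UMIs per 1000000 UMIs (CPM) in HSC-like cells and at most 1.24 in the other groups, while Clec3b (a plasminogen-binding protein) stood at 2695 to 2998 in FB-like cells and Myh11 (smooth muscle myosin) at 1834 to 2048 in VSMC-like cells. Between 33 and 74 cell barcodes were shared by each pair of libraries. Cells with 3 or more hepatocyte markers made up at most 1.52% of a library. HSC-like and other cells come from different digestions, so class and digestion cannot be told apart in the droplet data.

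By the GENCODE annotation of GRCm38, the build that the files name mm10, all 8 members are protein-coding. Hhip lies at chr8:79965851-80058006 and Ptch1 at chr13:63508328-63573598, both on the minus strand. The region 250 bases upstream of the RefSeq transcription start is shown for these 2 genes because they are the pathway targets with the lowest injured-to-uninjured ratios of the members in HSC-like cells at 72 h. Capitals mark the 6-base core of the GLI site (GGGTGG, or CCACCC on the opposite strand). The Ptch1 window lies inside the longer GENCODE gene, upstream of a start within it.
Hhip (chr8:80058009-80058258, minus strand): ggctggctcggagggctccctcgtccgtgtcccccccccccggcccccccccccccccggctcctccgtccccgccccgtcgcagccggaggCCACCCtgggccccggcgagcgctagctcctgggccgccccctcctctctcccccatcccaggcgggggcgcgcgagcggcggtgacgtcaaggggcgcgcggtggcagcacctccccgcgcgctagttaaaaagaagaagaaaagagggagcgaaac
Ptch1 (chr13:63565736-63565985, minus strand): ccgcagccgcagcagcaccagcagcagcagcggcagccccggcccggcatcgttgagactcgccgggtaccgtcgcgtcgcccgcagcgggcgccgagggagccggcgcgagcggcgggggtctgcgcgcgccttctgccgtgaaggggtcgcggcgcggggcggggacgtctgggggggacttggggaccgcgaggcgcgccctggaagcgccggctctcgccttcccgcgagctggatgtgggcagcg

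The RefSeq table (GRCm38.p6) held promoters of 6 of the 8 members. None of the 6 carried the 9-base GLI motif TGGGTGGTC on either strand between 250 bases upstream and 50 downstream of the start, and 0.253% of all 32851 promoters of that length did. The 6-base core lies within that motif, was found in 4 of the 6 (Hhip, Smo, Gli2 and Gli3) and in 31.5% of all promoters, and is a description of these letters only.

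Hhip was the member with the sharpest contrast between cell groups. Droplet levels are CPM, the UMIs of a gene per 1000000 UMIs of its cell group, with exact 95% Poisson intervals that cover counting error only, since each group is 1 library. Hhip stood at 147 CPM (143.6 to 150.6) in uninjured HSC-like cells, at 15.1 (14.3 to 15.96) 72 h after CCl4 and at 43.0 (41.2 to 44.8) after 6 weeks. In FB-like cells it stood at 5.40 uninjured and 3.42 after CCl4, and in VSMC-like cells at 2.08 and 0.213, the last pair from 12 and 3 UMIs. Of the 12 UMIs, 11 lay in the cluster led by Ly6d and Cnn1, where 54.0% of cells were called as doublets. The order of the 7 groups was therefore uninjured, 6-week and 72 h HSC-like cells, then both FB-like groups, then both VSMC-like groups, and of the neighbors in that order the intervals of CCl4 FB-like (2.60 to 4.42) and uninjured VSMC-like cells (1.08 to 3.64) overlapped.

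The Hhip level was 9.73-fold lower (9.17 to 10.3) at 72 h and 3.42-fold lower (3.26 to 3.59) at 6 weeks than in the uninjured HSC library, so it was lowest in the acute library. The share of HSC-like cells with at least 1 Hhip UMI was 57.1% uninjured, 14.96% at 72 h and 27.8% at 6 weeks, although the median depth was 6718, 11345 and 9893 UMIs per cell. With cells thinned to 2000 UMIs, and 114 shallower uninjured HSC-like cells left out, the shares were 25.2%, 3.26% and 8.10%. Thinned likewise, with 156 shallower cells left out, the share was 0.301% in uninjured VSMC-like cells. Before thinning that group had a median depth of 3218. Fewer cells making Hhip and less Hhip RNA per cell cannot be told apart for the summed level.

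Across the genes with a mean of at least 5 CPM, 6.81% were 2-fold or more higher and 9.11% 2-fold or more lower at 72 h, and 2.8% and 1.54% at 6 weeks. Of the 8 members 5 passed that filter in both comparisons. Hhip and Ptch1 were past 2-fold lower at 72 h, Hhip alone at 6 weeks, and no member was past 2-fold higher. Boc, Gli1 and Gli2 did not reach the filter. The median log2 ratio over all genes was -0.21 at 72 h and -0.22 at 6 weeks, so ratios in the injured HSC libraries were centred below 1, and under trimmed-mean (TMM) scaling the Hhip ratio was 0.112 in place of 0.103 at 72 h and 0.327 in place of 0.292 at 6 weeks. TMM scaling also changed the split of all genes past 2-fold from 652 higher and 873 lower to 767 and 656 at 72 h, and from 264 and 145 to 376 and 73 at 6 weeks.

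**Figure D1:**
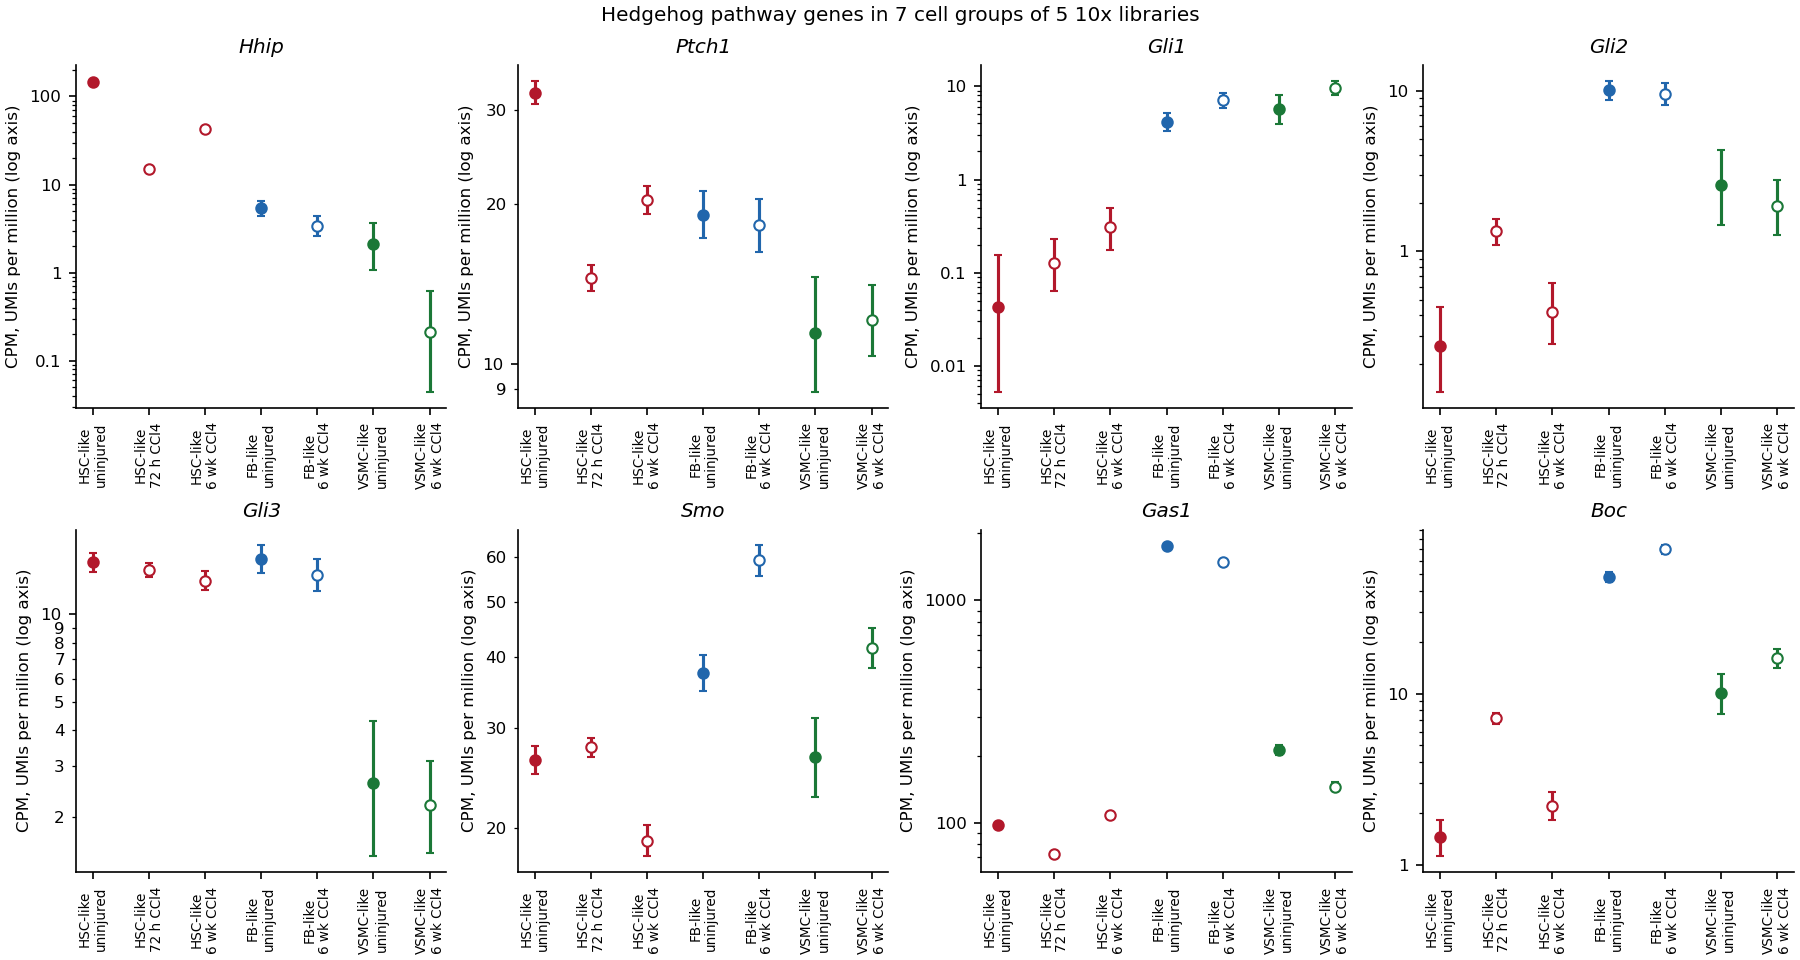
Each panel plots 1 gene, with the 7 cell groups on the x axis and CPM on a log y axis. Filled points are uninjured and open points CCl4 libraries, bars are exact 95% Poisson intervals, and Hhip runs from 147 in uninjured HSC-like cells to 15.1 at 72 h and 0.213 in CCl4 VSMC-like cells, while Gli1 is at or below 0.307 in all 3 HSC-like groups.

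Ptch1, the ligand receptor and a target gene, stood at 32.3 CPM in uninjured HSC-like cells, 14.5 at 72 h and 20.3 at 6 weeks. These are ratios of 0.448 (0.416 to 0.484) and 0.629 (0.581 to 0.681). Ptch1 in FB-like cells was 19.1 uninjured and 18.2 after CCl4, and in VSMC-like cells 11.5 and 12.1, so within both of these classes its intervals overlapped.

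Smo, the signal transducer, and Gli3, the factor known mainly as a repressor in the absence of ligand, were detected in HSC-like cells of every library. Smo stood at 26.4 uninjured, 27.8 at 72 h and 19.0 at 6 weeks. Gli3 stood at 15.2, 14.2 and 13.1 in the same order, ratios of 0.939 (0.855 to 1.03) and 0.863 (0.775 to 0.960). With TMM scaling the Gli3 ratios were 1.02 and 0.965, so the direction at 72 h depended on the scaling.

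The activator genes were scarce in HSC-like cells. Gli1, whose transcript is the usual readout of pathway activity, gave 2 UMIs in 6850 uninjured HSC-like cells, 11 at 72 h and 16 at 6 weeks, or 0.0431, 0.127 and 0.307 CPM. Gli2 gave 12, 115 and 22 UMIs, or 0.259, 1.33 and 0.422 CPM, a ratio at 72 h of 5.15 (2.84 to 10.2). Both stayed well under the level used as the filter.

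FB-like and VSMC-like cells had the higher Gli1 levels, at 4.16 CPM in uninjured FB-like cells, 7.13 after CCl4, and 5.73 and 9.71 in VSMC-like cells. The ratios were 1.71 (1.29 to 2.29) and 1.69 (1.15 to 2.56), short of 2-fold in both classes. The clusters that made up a class differed between the libraries: the cluster led by Clec3b and Mmp3 held 52.6% of uninjured and 75.6% of CCl4 FB-like cells, with Gli1 at 6.37 (4.90 to 8.16) and 8.41 CPM (6.89 to 10.2) in it, so the intervals within it overlapped. In VSMC-like cells the shares of clusters 4 and 7 were 38.6% and 52.1% uninjured and 62.8% and 30.03% after CCl4, with Gli1 going from 4.75 to 8.93 and from 7.01 to 10.9 CPM. Gli2 was highest in FB-like cells, at 10.0 and 9.55, and stood at 2.60 and 1.91 in VSMC-like cells with overlapping intervals. Gli3 in FB-like cells was 15.6 and 13.7, close to its HSC level, and in VSMC-like cells 2.60 and 2.20.

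The co-receptors were also highest in FB-like cells. Gas1, a GPI-anchored co-receptor, stood at 1755 CPM uninjured and 1487 after CCl4 in FB-like cells, against 212 and 145 in VSMC-like and 97.2, 72.4 and 108.8 in HSC-like cells in the order uninjured, 72 h and 6 weeks. Boc, a co-receptor of the immunoglobulin superfamily, stood at 48.1 and 69.8 in FB-like, 10.1 and 16.1 in VSMC-like, and 1.44, 7.16 and 2.20 in HSC-like cells. The Boc ratio in HSC-like cells was 4.96 (3.85 to 6.48) at 72 h and 1.53 (1.12 to 2.09) at 6 weeks, from 67, 619 and 115 UMIs.

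In FB-like cells 1.45% of genes were past 2-fold higher and 0.541% lower after CCl4, and in VSMC-like cells 2.46% and 0.558%. Of the 7 members over the filter in FB-like and the 5 in VSMC-like cells none was past 2-fold. Hhip lay under the filter in both classes, at ratios of 0.633 (0.452 to 0.878) and 0.102 (0.0185 to 0.378), the second from 3 UMIs against 12. Boc and Smo were nearest in FB-like cells after Gli1, with ratios of 1.45 and 1.58. The VSMC-like values moved with cells called as doublets: without them the Gas1 ratio was 0.967 in place of 0.684, the Boc ratio 2.91 in place of 1.60 and the Hhip ratio 0.597 in place of 0.102. For the other members the ratio without them stayed within its counting interval, though that of Gli3 changed direction. The part of doublets in VSMC-like values of genes other than the members was not tested.

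Ligand transcripts were rare in the sorted mesenchyme, with Dhh (desert hedgehog) as the exception. Shh gave no UMI in any of the 7 groups, which allows a level of up to 0.0347 to 0.521 CPM, the level of 3 UMIs at the group's depth. Ihh stood at no more than 0.0431 CPM in HSC-like cells, from 2 UMIs in 1 cell when uninjured, at 0.118 CPM in CCl4 FB-like cells, and at 1.04 and 1.42 CPM in VSMC-like cells. Dhh stood at 11.1 CPM in uninjured HSC-like cells (514 UMIs in 492 cells), 4.19 at 72 h and 5.02 at 6 weeks, and gave no UMI in FB-like or VSMC-like cells. In the Smart-seq2 plates Dhh read 16.3 and 22.5 reads per 1000000 reads (RPM) in the 2 HSC-like portions, with a read in 52 of 306 wells, and at most 2.27 RPM in any FB-like or VSMC-like portion. Exons of Dhh overlap those of Rhebl1 on the same strand and those of Gm49442 on the opposite strand, so its values are uncertain where reads fall there.

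The wider pathway was followed with a list of 39 other genes, of which 25 passed the filter in HSC-like cells. At 72 h 2 of the 25 were past 2-fold higher and 8 past 2-fold lower (6.81% and 9.11% of all genes), with a median log2 ratio of -0.48 against -0.21 over all genes, and at 6 weeks 2 were higher and 2 lower (2.8% and 1.54% of all genes), with a median of -0.34 against -0.22. Under TMM scaling the counts were 2 higher and 5 lower at 72 h, and 2 higher and 0 lower at 6 weeks. Besides Dhh, the ratios at 72 h were 0.476 for Evc and 0.470 for Evc2 (partners that hold active Smo at the cilium base), 0.489 for Ccnd1 and 0.453 for Ccnd2 (D-type cyclins), 0.380 for Mycn (a proliferation-linked transcription factor), 0.404 for Bcl2 (an inhibitor of apoptosis) and 0.335 for Bmp4 (a signaling ligand). Under TMM scaling Evc, Evc2 and Ccnd1 stood at 0.517, 0.510 and 0.531, short of 2-fold. At 6 weeks Dhh and Evc had ratios of 0.453 and 0.469, and of 0.507 and 0.525 under TMM scaling, which ends both counts as 2-fold lower. The 2 genes past 2-fold higher were the same at both times: Scube1 (a secreted member of a family that aids ligand release) at ratios of 5.04 and 7.74, and Wnt5a (a noncanonical Wnt ligand) at 2.66 and 4.12. Both comparisons use the same uninjured library.

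**Figure D2:**
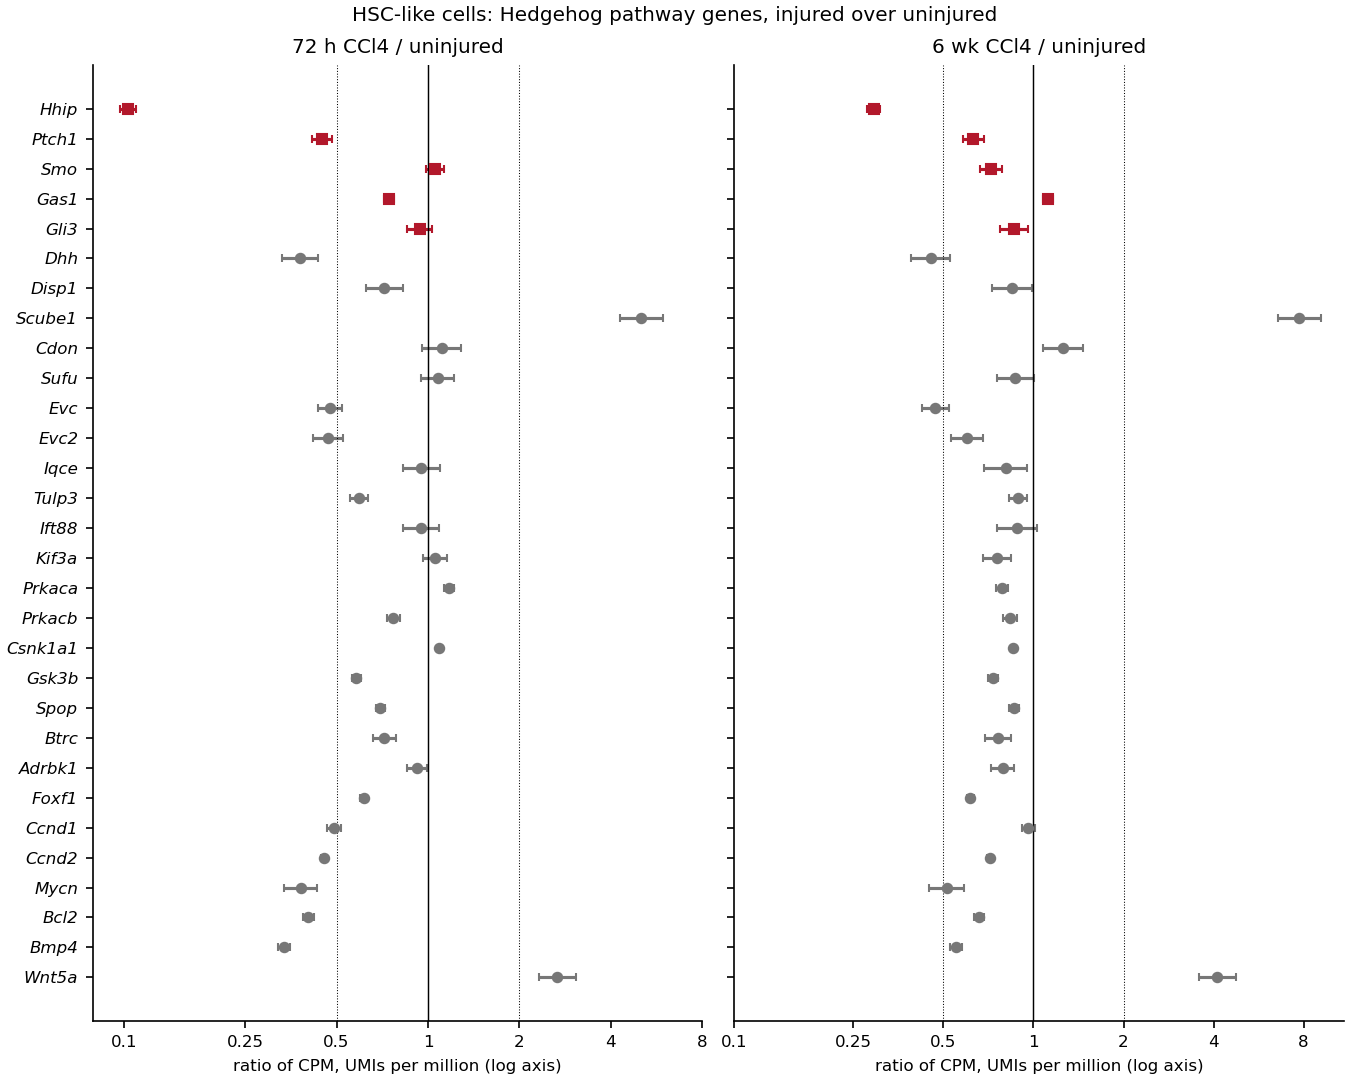
Ratios of CPM in HSC-like cells, injured over uninjured, on a log x axis, for each member (red squares) and listed pathway gene (gray circles) that passed the level filter in both comparisons. Bars are 95% intervals of counting error and dotted lines mark 2-fold; Hhip lies at 0.103 and 0.292, below every other gene plotted, and Scube1 lies at 5.04 and 7.74.

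In FB-like cells 24 of the 39 passed the filter, and Ccnd1 alone was past 2-fold, at a ratio of 2.02 that was 1.99 under TMM scaling. In VSMC-like cells 21 passed, and Ccnd1 (4.60) and Evc2 (2.26) were past 2-fold higher.

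The lower Hhip level was not confined to 1 cluster of HSC-like cells. Among clusters with at least 50 cells, Hhip stood at 112.8 to 174.9 CPM over 5 clusters of the uninjured library, 11.3 to 36.2 over 4 clusters at 72 h, and 19.2 to 95.8 over 7 clusters at 6 weeks. The ranges of the uninjured and injured libraries do not overlap, which is a description, since clusters were made from the same cells. The clusters of that size at 72 h were all different from the uninjured ones, and injured cells in smaller groups were not counted. In cluster 3, which held 1585 uninjured and 1056 6-week cells, Hhip stood at 112.8 and 44.7. Clusters 5 (2319 uninjured and 171 6-week cells) and 6 (174 and 2266) were also shared. By the ranges above Hhip was lower at 6 weeks in these as well, by an amount that may differ. The 72 h cluster led by the mitotic genes Ube2c, Cdca3 and Ccnb2 had Hhip at 11.6 CPM, close to the 11.3 of the largest cluster at that time.

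Along the liver lobule, Hhip and Ptch1 ran in opposite directions in uninjured HSC-like cells. Cells of each library were split into 5 equal bins by a score of 52 portal minus 29 central-vein genes that the study chose on these samples, none of which is a member. In the uninjured library Hhip stood at 208.8 CPM in the central-most bin, then at 166.8, 142.2 and 124.0, and at 97.7 in the portal-most. Ptch1 stood at 23.6, 24.9, 27.6, 35.0 and 50.4 in the same order.

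At 72 h Hhip was nearly level over the first 4 bins, at 12.8, 12.3, 11.9 and 12.8, and highest in the portal-most, at 28.1. At 6 weeks it stood at 44.0, 41.6, 40.0, 52.2 and 36.8, with no steady slope. Ptch1 was highest in the portal-most bin of all 3 libraries, at 28.6 at 72 h and 34.8 at 6 weeks against 12.9 and 16.3 in the central-most. Set bin against bin, the Hhip ratio to uninjured was smallest in the central-most bin, where the 72 h level was 12.8 against 208.8. Bins are ranks within each library, so the same bin need not be the same lobule position. Col1a1 also differed along the 72 h bins, at 2284 CPM in the central-most and 602.4 in the portal-most. In the uninjured library it stood at 207.2 and 173.1.

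**Figure D3:**
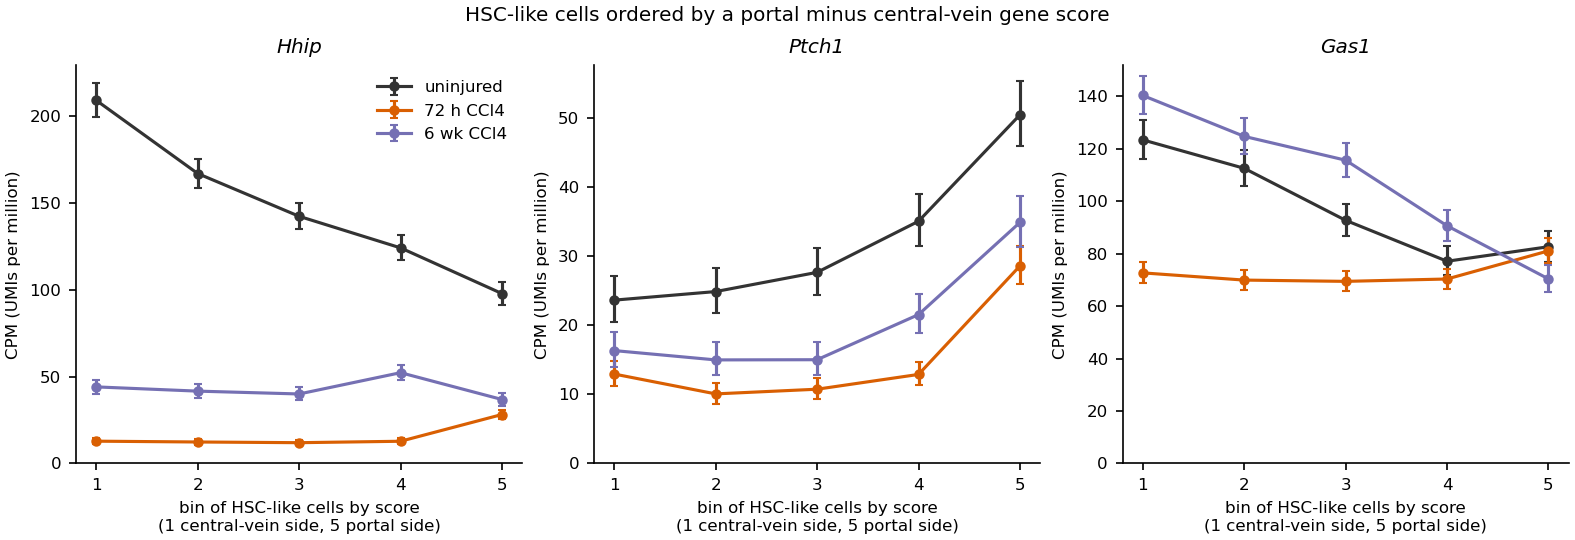
HSC-like cells of each library split into 5 equal bins by the portal minus central-vein score (x axis, 1 central to 5 portal) with CPM on the y axis and 95% Poisson bars. In the uninjured library Hhip goes from 208.8 to 97.7 while Ptch1 goes from 23.6 to 50.4, and at 72 h Hhip is 12.8 in bin 1 and 28.1 in bin 5.

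Within the injured libraries, Hhip was lower in cells with more fibrillar collagen RNA (5 equal bins by a score of Col1a1, Col1a2 and Col3a1). At 72 h it stood at 30.7, 23.0, 12.4, 8.002 and 6.58 CPM from the lowest to the highest collagen bin, and at 6 weeks at 60.2, 59.0, 45.8, 32.5 and 20.4. In the uninjured library the range was narrower, 159.1 in the lowest and 117.2 in the highest bin. Boc ran the other way at 72 h, from 1.90 to 14.4 CPM, and from 1.07 to 4.96 at 6 weeks. These bins come from the same cells, so they are descriptions. Depth differed between them, with medians of 9802 to 13185.5 UMIs per cell over the 72 h bins and 9101.5 to 10135 at 6 weeks.

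Among FB-like cells, Hhip, Ptch1 and Gli1 were highest in the same cluster. The uninjured cluster led by Clec3b and Mmp3 (2136 cells) held 105 of the 109 Hhip UMIs, at 10.6 CPM, with Ptch1 at 34.2 and Gli1 at 6.37. In the cluster led by Thbs4 and Angptl1 the values were 0.178, 5.15 and 2.84, and in that led by Ly6c1 and Pi16 0.643, 3.86 and 1.07. Gas1 and Boc were highest in the Thbs4 and Angptl1 cluster, at 2726 and 80.4. After CCl4 Hhip in the Clec3b and Mmp3 cluster stood at 4.48 and Gli1 at 8.41.

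The Smart-seq2 plates repeat the class comparison with full-length reads and replicate portions, a portion being the wells of 1 layout mouse on 1 plate. Nothing states that every portion is a different mouse, so p-values measure only the spread between portions. The study counts 3 uninjured mouse liver samples for Smart-seq2, fewer than the 6 uninjured FB-like portions, so some of these may share a mouse. In RPM, Hhip read 623.8 and 724.9 in the HSC-like portions, both on plate 6, with a read in 270 of 306 wells. It read 28.9 to 220.7 in the 6 uninjured FB-like portions and 0 to 6.26 in the 6 uninjured VSMC-like portions, so the 3 classes did not overlap. The HSC-like portions held no FB-like or VSMC-like wells. For HSC-like wells, class therefore cannot be told apart from portion or digestion on the plates either.

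Levels per kilobase of exon, with all annotated exons of a gene counted, allow different genes to be set side by side only roughly. On this scale Hhip was the most abundant member in uninjured HSC-like wells, at a mean of 74.3 RPM per kb over 2 portions. Next were Gas1 (39.4), Gli3 (4.79), Smo (3.57), Ptch1 (0.975) and Boc (0.564), with Gli1 at 0.00137 and Gli2 at 0. Of the neighbors in that order, Ptch1 and Boc overlapped between the 2 portions, and Gli1 and Gli2 were both at 0 in 1 of them. In the droplet data the order differed, with Ptch1 above Smo and Gli3 in uninjured HSC-like cells. In FB-like wells Gas1 led at 286.5, followed by Boc (27.6), Hhip (10.6), Smo (9.48), Gli3 (5.40), Gli1 (5.15), Gli2 (3.59) and Ptch1 (0.844), and over the 6 portions each range overlapped that of the next gene, except Gas1, which lay above Boc. In VSMC-like wells Gas1 (28.8), Boc (9.41), Smo (6.11) and Gli1 (3.08) led, and Hhip stood at 0.118. Exons of Hhip, Gas1, Gli1 and Gli3 overlap exons of genes on the opposite strand and the plate protocol is not stated to keep strand, so their reads cannot be told apart from those of these neighbors.

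After BDL, Hhip was nearly absent from FB-like wells. In uninjured portions it read 65.6, 109.5, 96.0, 28.9, 57.4 and 220.7 RPM on plates 1 to 6, a mean of 96.4 ± 67.3 (SD, n = 6 portions), with a read in 39 of 250 wells. In the 5 BDL portions it read 0, 0, 0.0591, 0 and 0.577 RPM, with a read in 2 of 226 wells. The highest BDL portion was below the lowest uninjured portion, and the groups did not overlap.

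By edgeR's quasi-likelihood test Hhip fell by 8.83 on the log2 scale (SE 1.06, Benjamini-Hochberg adjusted p = 0.00215), a size that depends on the prior count because most BDL portions are at 0. It was the only member called. In that comparison 0.0538% of 13023 genes were called higher and 0.0384% lower, 12 in all and 0 with plate as a term. With that term, for the plates that uninjured and BDL wells shared, the adjusted p of Hhip was 0.0730, and over all wells that were not HSC-like it was 0.0593, so both end the call, while it held in 18 of 20 alternatives (adjusted p from 7.86e-21 to 0.0730). Without the plate 4 BDL portion, which held 22 of the 23 BDL reads of Hhip, the log2 difference was -11.76.

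The wells behind this difference were not of the same kind. Of the uninjured FB-like wells, 78 of 250 fell in a cluster led by Sfrp1, Fxyd6 and Wif1, in which 27 wells had Hhip reads at a pooled 177.0 RPM, and 1 of the 226 BDL wells did. In the cluster led by Mmp3, C3 and Penk, present in both conditions, Hhip stood at 38.5 RPM in 128 uninjured wells (11 with a read) and at 0.395 in 142 BDL wells (2 with a read). A further 67 BDL wells formed a cluster left without a name, led by Spp1, Lbp and Fxyd6, with Hhip at 9.39 RPM from 2 wells. Wif1, Sfrp1 and Pi16 were also among its leading genes, as in the Sfrp1, Fxyd6 and Wif1 cluster. With the unnamed wells that scored as FB included, Hhip fell by 6.14 on the log2 scale (edgeR adjusted p = 0.0263). In these added BDL wells 5 cholangiocyte markers (Krt19, Krt7, Epcam, Sox9 and Spp1) summed to a median of 7090 RPM over 4 portions, against 14.8 in FB-like BDL portions. Spp1 was also among the leading genes of the added clusters, and its share of that sum was not tested. The 5 leucocyte markers summed to up to 2095 RPM, against at most 11.1. The part of other cell types in the Hhip value was not tested.

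HSC markers were low in FB-like wells. The 8 HSC markers summed to 949.0 to 1358 RPM in uninjured and 440.8 to 1104 in BDL FB-like portions, against 43360 and 45262 in HSC-like portions, and Ecm1, which FB-like wells also express, made up most of that. Reln stood at 0 in 3 of the 6 uninjured FB-like portions, those with Hhip at 109.5, 96.0 and 28.9 RPM, and at 11.3, 51.3 and 2.12 RPM in those with Hhip at 65.6, 57.4 and 220.7. Lrat (the retinol-esterifying enzyme of HSCs) stood at 66.8 RPM in the portion with Hhip at 220.7, on the plate that also held the HSC-like wells, at 10.3 in the one with 57.4, and at most at 0.435 in the other 4. After BDL Reln reached at most 5.29 and Lrat 7.62 RPM. The part of HSC RNA in these Hhip levels was not tested.

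After 6 weeks of CCl4, Hhip in FB-like wells read 16.9, 24.8, 62.4 and 9.44 RPM in 4 portions (mean 28.4 ± 23.5 SD), with a read in 14 of 111 wells, overlapping the uninjured range. The Sfrp1, Fxyd6 and Wif1 cluster held 35 of these wells, at a pooled 61.3 RPM of Hhip in 11 wells, against 8.67 RPM in the 68 wells of the Mmp3, C3 and Penk cluster. The log2 difference was -1.79 (SE 0.79, edgeR adjusted p = 1.00), with 0.0% of genes called in either direction. A further 144 CCl4 wells scored as FB but were left without a name, and none of them held a Hhip read. In these wells the 5 leucocyte markers summed to 524.7 to 970.5 RPM, against at most 21.2 in FB-like CCl4 portions. Hhip was not called by edgeR with them added. In the droplet FB-like cells the Hhip ratio was 0.633 (0.452 to 0.878). In VSMC-like wells Hhip was too low to be tested, with reads in 10 of 359 uninjured, 0 of 363 BDL and 4 of 208 CCl4 wells. Whether the BDL effect on Hhip differs between the 2 classes of wells was not resolved by edgeR (log2 difference -5.22, SE 26.5, adjusted p = 1.00, 0.0% of genes called higher and 0.0138% lower), since VSMC-like wells hold almost no Hhip.

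**Figure D4:**
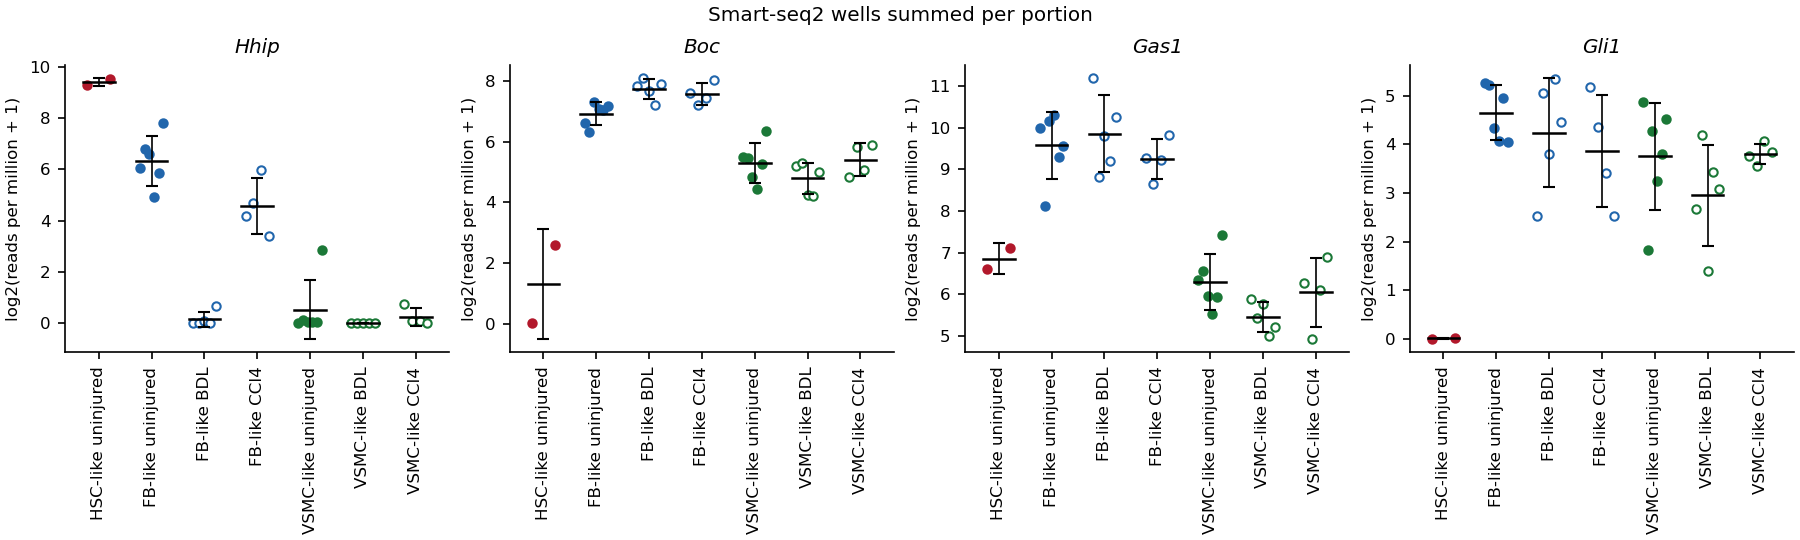
Smart-seq2 levels per portion as log2(RPM + 1) for Hhip, Boc, Gas1 and Gli1 in HSC-like, FB-like and VSMC-like wells. Points are portions (filled uninjured, open injured), and black lines with bars are the mean ± SD of the plotted values; Hhip in FB-like BDL portions lies at or near 0, below all 6 uninjured portions.

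Boc, unlike Hhip, stood higher in most BDL portions of FB-like wells. It read 97.5, 78.0, 156.5, 133.0, 129.8 and 142.2 RPM in the uninjured portions (mean 122.8 ± 29.3 SD) and 228.5, 270.1, 199.9, 146.1 and 236.0 in the BDL portions (mean 216.1 ± 46.4 SD). Of the BDL portions 4 of 5 were above the highest uninjured one. The log2 difference of 0.84 (SE 0.26) had an unadjusted p of 0.00466 and did not pass the adjustment (edgeR adjusted p = 0.321, and 0.0744 to 1.00 over 20 alternatives). After CCl4 Boc read 145.8 to 262.0 RPM, a log2 difference of 0.69 (SE 0.27, edgeR adjusted p = 1.00), and the droplet ratio in FB-like cells was 1.45 (1.33 to 1.58). In 143 CCl4 wells of an unnamed cluster that scored as FB, Boc stood at a pooled 66.6 RPM, below every uninjured FB-like portion. The difference stayed above 0 with the unnamed wells scored as FB added. Both plate comparisons share the uninjured portions.

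Gas1, Gli1, Gli2, Gli3, Ptch1 and Smo did not pass the test in FB-like wells after either injury. Gas1 read 278.9 to 1266 RPM uninjured, 449.1 to 2331 after BDL and 400.1 to 903.4 after CCl4. Gli1 read 15.5 to 37.5, 4.78 to 39.4 and 4.76 to 35.4 in the same order, and Ptch1 2.67 to 35.8, 0.645 to 9.61 and 2.47 to 8.92. All of these ranges overlapped. The Gli1 log2 difference after CCl4 was -0.52 (SE 0.65, edgeR adjusted p = 1.00), where the droplet ratio was 1.71.

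In VSMC-like wells 0.183% of genes were called higher and 0.084% lower after BDL and 0.0% in either direction after CCl4, and none of the 7 members tested was called. With plate as a term 1 gene was called after BDL, against 35 without it. Gas1 came nearest after BDL, at 30.9 to 58.0 RPM in 5 portions against 45.1 to 171.7 in 6 uninjured portions, a log2 difference of -0.91 (SE 0.37, edgeR adjusted p = 0.470). The Boc difference between classes after BDL, FB-like minus VSMC-like, was 1.30 on the log2 scale (SE 0.41) and did not pass (unadjusted p = 0.00553, edgeR adjusted p = 0.761). In the CCl4 comparison between classes 0.0% of genes were called.

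Of the 39 listed pathway genes, 32 were tested for FB-like wells and 36 for VSMC-like ones, and edgeR called 0 after either injury. At an unadjusted p under 0.05 there were 3 after BDL and 0 after CCl4 in FB-like wells, and 3 and 2 in VSMC-like wells. Over all genes tested these shares were 7.22% and 2.62% in FB-like and 8.40% and 4.52% in VSMC-like wells, so the list's counts within each class were near the background. The median log2 difference of the list after BDL was -0.20 in FB-like wells, against -0.03 over all genes tested, and 0.12 in VSMC-like wells, against 0.0037. After CCl4 the list's medians were 0.11 and 0.15, against -0.0078 and -0.0059 over all genes tested. For the BDL effect between classes, 5 of 36 listed genes had an unadjusted edgeR p under 0.05, against 5.09% of all genes, and 0 were called. The list's median there was -0.61, against -0.27 over all genes tested. For the CCl4 effect between classes these values were 2 of 36, 2.05%, 0, -0.48 and -0.061.

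The genes whose droplet levels ran most like those of Hhip over the 7 cell groups, among 7534 genes, were Ncoa2 (Pearson r of log2(CPM + 1) 0.993), Elf1 (0.993), Dcbld2 (0.991), Elk4 (0.990) and Fbxw17 (0.989), all with much smaller ranges, as for Dcbld2 from 53.8 to 16.4 CPM. For Gli1 they were Eml1 (0.989), Cdh13 (0.989) and Acbd4 (0.987). Among the members, Ptch1 had r = 0.850 with Hhip and Gli1 r = -0.914. The 7 groups share libraries, depth and digestions, so these are descriptions.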

How the data were processed

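Gene counts were deposited for 5 droplet libraries and 6 Smart-seq2 plates. Per the labels and the study's methods, the authors made the droplet UMI counts with Cell Ranger 2.1.0 and the plate read counts from STAR alignments, both on mm10, and neither is normalized. The droplet tables were used with cells of at least 300 genes and at most 30% mitochondrial UMIs. Wells were left out by a limit of 3 median absolute deviations from the plate median. The limit applied to low reads, few detected genes or a high share of spike-in RNA, so wells with many reads were kept. This left 337 to 364 wells per plate at a median of 404934 to 467458.5 reads, and 25965670 to 86664085 UMIs per droplet library. Depth sets the counting intervals, and plate counts are reads without molecular identifiers, so their precision is not that of molecules.

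Cells were clustered on 2000 variable genes and 10 components (leidenalg 0.10.2, resolution 0.8) and clusters were named from markers. The scoring was settled after clusters had been seen. Doublets were called by simulation at 0.8% per 1000 cells and kept, with an alternative without them. Droplet levels are summed UMIs per 1000000 (CPM) with exact 95% intervals, and a count of 0 was set to 3 counts for limits. A gene was past the fold at 2-fold with a mean of at least 5 CPM. There is 1 library per condition and digestion, so no test was made on these.

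Plate reads were summed over the wells of a class in each portion with at least 5 wells and tested with edgeR 4.0.16 (R 4.3.3; TMM, filterByExpr, quasi-likelihood F test, Benjamini-Hochberg over all genes, threshold 0.05). DESeq2 1.42.0, RLE size factors, a looser filter, plate as a term, summed layout mice, other well sets and portions left out in turn were alternatives. Summing layout mice joined injured portions only, so uninjured portions that may share a mouse stayed apart. Plate was taken as a shared batch, since per the labels uninjured and injured wells were sorted onto the same plates, and the values with plate as a term stand beside those it changes. The correlation of deviations from the condition means between portions of 1 plate had a median of 0.0114 (-0.0548 to 0.146 over 9 FB-like pairs). The step was tested on simulated data. Named genes were all members, the 3 ligands, listed pathway genes past 2-fold with at least 10 CPM in the higher group or called by edgeR, and the 5 and 3 genes most like Hhip and Gli1 by correlation among genes with at least 20 CPM in 1 group. The members and gene lists were chosen with earlier results of these data known. The collagen and zonation bins, the 10-well minimum, the inclusion of unnamed wells scored as FB and the 6-base motif core were chosen after seeing the data.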

Additional observations from a re-analysis of the deposited data

Results flagged for a closer look

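Levels of each member were screened for a portion far from the others of its class and condition, in 47 groups of 4 to 6 portions. For normally distributed values the gap rule would flag about 2.35 portions by chance, and 7 were found. Many levels lie at or near 0, where a few wells with reads can set off the rule. The value of 2.35 is therefore no chance rate for these data. The Hhip values were 0.577 RPM in the FB-like wells of the plate 4 BDL portion (1 of 88 wells with a read, the others at most 0.0591), 0.691 RPM in 1 CCl4 VSMC-like portion of plate 3 (2 of 45 wells) and 6.26 RPM in the uninjured VSMC-like wells of plate 6 (4 of 17 wells), the plate that also held the HSC-like wells. The part of reads passed between wells of that plate was not tested. Gli2 stood at 32.7 RPM in a BDL FB-like portion of plate 2 from 1 of 6 wells and at 42.0 RPM in the uninjured VSMC-like wells of plate 6 from 3 of 17 wells. Gli3 stood at 5.88 RPM in a CCl4 VSMC-like portion of plate 3. Smo stood at 96.6 RPM in the uninjured FB-like wells of plate 1, against 39.7 to 47.7 in the other 5 portions.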

How the results depend on the processing

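Droplet ratios of the members kept their direction under the 6 alternatives tried, except Gli3 in HSC-like cells at 72 h (1.02 with TMM), Gli3 in VSMC-like cells (1.14 without called doublets and 1.15 as a mean over cells) and Ptch1 in VSMC-like cells (0.889 over all cells and 0.792 with each library clustered alone). Without the level filter 5871, 3827, 3019 and 3212 genes were past 2-fold in HSC-like cells at 72 h and 6 weeks, FB-like and VSMC-like cells, against 1525, 409, 199 and 292, and over all cells of the library 363 in FB-like cells, where the Hhip ratio was 0.421 in place of 0.633.

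After BDL edgeR called 12 genes in FB-like wells. The count was 22 with any gene of at least 1 read, 164 by DESeq2, 39 over all wells not HSC-like, 4 with the plates of a layout mouse summed, 7 with at least 10 wells, 89 with unnamed wells, and 1 to 23 leaving out a portion in turn (plates 1 and 2 held BDL portions of 174 and 80 sorted wells): 1 without the uninjured portion of plate 1, 2 without the BDL portion of 174 wells on plate 2, 3 without the uninjured portion of plate 3 or of plate 5, 6 without the BDL portion of 80 wells on plate 1 or the uninjured portion of plate 2, 7 without the BDL portion of 80 wells on plate 2 or the uninjured portion of plate 6, and 23 without the BDL portion of 174 wells on plate 1. In VSMC-like wells 35 were called, with 216 by DESeq2, 2 with layout mice summed and 11 to 41 leaving out a portion: 11 without the BDL portion of 80 wells on plate 1 or of plate 2, 12 without the uninjured portion of plate 3, 13 without that of plate 1 or the BDL portion of 174 wells on plate 2, 18 without the BDL portion of 174 wells on plate 1 or the uninjured portion of plate 2, and 22 without the BDL portion of plate 4. After CCl4 edgeR called 0 in both classes (341 and 592 at an unadjusted p under 0.05). In FB-like wells DESeq2 called 23, all wells gave 39, summed mice 2, unnamed wells 64 and left-out portions 0, and in VSMC-like wells DESeq2 called 48 and all wells 39. The class difference after BDL had 2 calls, 1 with RLE, 184 by DESeq2, 7 with unnamed wells and 0 to 2 leaving out a portion, with 0 for the uninjured portions of plates 1, 2, 3, 5 and 6, the BDL portion of 174 wells on plate 2 and that of plate 4, and 1 for the BDL portion of 174 wells on plate 1 or that of 80 wells on plate 2. After CCl4 it had 0 (297 at an unadjusted p under 0.05), 83 by DESeq2 and 4 with unnamed wells.

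With plate as a replicate block the counts after BDL were 0 for FB-like and 1 for VSMC-like wells. The Hhip difference in FB-like wells was -9.16 with the block and -6.00 over all wells, with adjusted p-values of 0.0730 and 0.0593, and ranged from -8.38 to -11.76 leaving out a portion (edgeR adjusted p 0.000197 to 0.0193). Its class difference after BDL was -6.64 by DESeq2 (adjusted p 0.0260, and 0.0260 to 1.00 over 16 alternatives). Over all wells not HSC-like the VSMC-like BDL differences of Gas1 and Boc were 0.13 and 0.28, where classes are mixed by construction. Leaving out a portion, Gas1 in FB-like wells after BDL ranged from -0.053 to 0.59 and Gli1 from -0.45 to 0.053, both changing sign without the BDL portion of 174 wells on plate 1, and Gli1 in VSMC-like wells after CCl4 from -0.44 to 0.030, changing sign without the uninjured portion of plate 1. The causes were not tested. The plate counts are limited by wells per portion, and Gli1 and Gli2 in HSC-like cells by 2 to 115 UMIs.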
